A study of Mus musculus with 20 samples.

Results

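Fatty acid and triglyceride synthesis was described here from 36 genes, taken by their symbols in the gene table. The list was drawn up with earlier results of these data known. All 36 were found among 35841 genes, and all 36 passed the filter on low values, at least 1 FPKM (fragments scaled to transcript length and to the size of the library) in at least 5 libraries, which left 13987 genes for testing. The table came from inguinal subcutaneous fat, a white adipose depot, of 20 female C57BL/6 mice aged 8 weeks. The mice were staged by vaginal smear and serum hormones as proestrus, estrus, metestrus or diestrus, with 5 mice and 5 polyA RNA libraries per stage, and no mouse received a drug or carried an engineered allele according to the labels. Each mouse was measured at 1 stage, so a comparison of stages is a comparison of different mice. Mice are named by stage and number, as in metestrus-4, and values are listed in that order within a stage. The comparison asked at which stages the synthesis genes stood higher or lower, and which of them moved together from mouse to mouse.

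Adipocytes make fatty acids from acetyl-CoA. Citrate leaves the mitochondrion and is cleaved to acetyl-CoA, acetyl-CoA carboxylase turns part of it into malonyl-CoA, and fatty acid synthase joins these units into palmitate with reducing power from NADPH. Elongases and desaturases then lengthen and unsaturate the chain, acyl-CoA synthetases activate it, and a chain of acyltransferases builds it onto glycerol as triglyceride, the fat stored in the lipid droplet. The transcription factors encoded by Srebf1 and Mlxipl are known to drive many of these genes after feeding, in response to insulin and to glucose. The members comprised 3 regulators, 4 genes of citrate and acetyl-CoA supply, 3 of fatty acid synthesis itself, 6 of elongation, 4 of desaturation, 5 of NADPH supply, 4 of acyl-CoA activation and 7 of triglyceride assembly.

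The libraries were of similar depth. The FPKM of a library summed to 373659 to 452647, and the steps between low values placed their relative depths between 0.975 and 1.29 times that of proestrus-1. That range is an estimate, and the read totals listed by the study were not used for it. The adipocyte markers, 10 of 10 above the filter, summed to 8189 to 17765 FPKM (median 13676), so the labelled tissue was borne out by its defining genes in every library. B and T cell markers were very uneven, from 2.49 FPKM in estrus-1 to 511 in estrus-3 over 15 genes, with 12 libraries on the high side of the widest gap and 8 on the low side. Skeletal muscle markers summed to 6672 FPKM in metestrus-3 against a median of 22.6, and the RNA of proestrus-2 came from a second portion of the fat pad according to the methods of the study. Results that rest on these libraries are given with and without them.

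Scd1, the stearoyl-CoA desaturase that makes oleate and palmitoleate, was the most abundant member by far, with a mean of 7065 FPKM over the 20 libraries. Thrsp, a nuclear protein linked to lipogenic gene expression, followed at 685 FPKM, Fasn, which encodes fatty acid synthase, at 649, and Me1, the cytosolic malic enzyme, at 484. The least abundant members were Fads2, the delta-6 desaturase, at 9.50 FPKM and Acsl3, an acyl-CoA synthetase of the endoplasmic reticulum and lipid droplet, at 7.03. Levels are compared here per length of transcript. Together the 36 genes took 4.09 ± 1.04% of all FPKM in diestrus mice and 2.83 ± 0.685% in proestrus mice, against 2.36 ± 0.225% in metestrus and 2.28 ± 0.353% in estrus mice (SD, n = 5). Without Scd1 these shares were 1.69%, 1.19%, 0.851% and 0.878%, so the order of diestrus and proestrus above the other stages did not rest on Scd1 alone.

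The members differed widely in how much they varied between mice. Acly, encoding ATP citrate lyase, spanned 24.4 times from the lowest to the highest mouse. Me1 spanned 13.3 times, Scd2 13.1, Acss2 12.8 and Elovl6 12.4. At the other end, Hacd3, a dehydratase of the elongation cycle, and Acsl5, an acyl-CoA synthetase, each spanned 1.44 times. Of the 36 members, 21 had their highest stage mean at diestrus, 7 at proestrus, 6 at metestrus and 2 at estrus, while 16 had their lowest at metestrus and 12 at estrus. A single mouse, diestrus-1, held the highest value for 15 members, and the lowest values were mostly in proestrus-5 (9 members), estrus-1 (8), metestrus-5 (8) and estrus-3 (6). In bulk tissue, fewer cells of a type and less RNA per cell cannot be told apart.

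**Figure D1:**
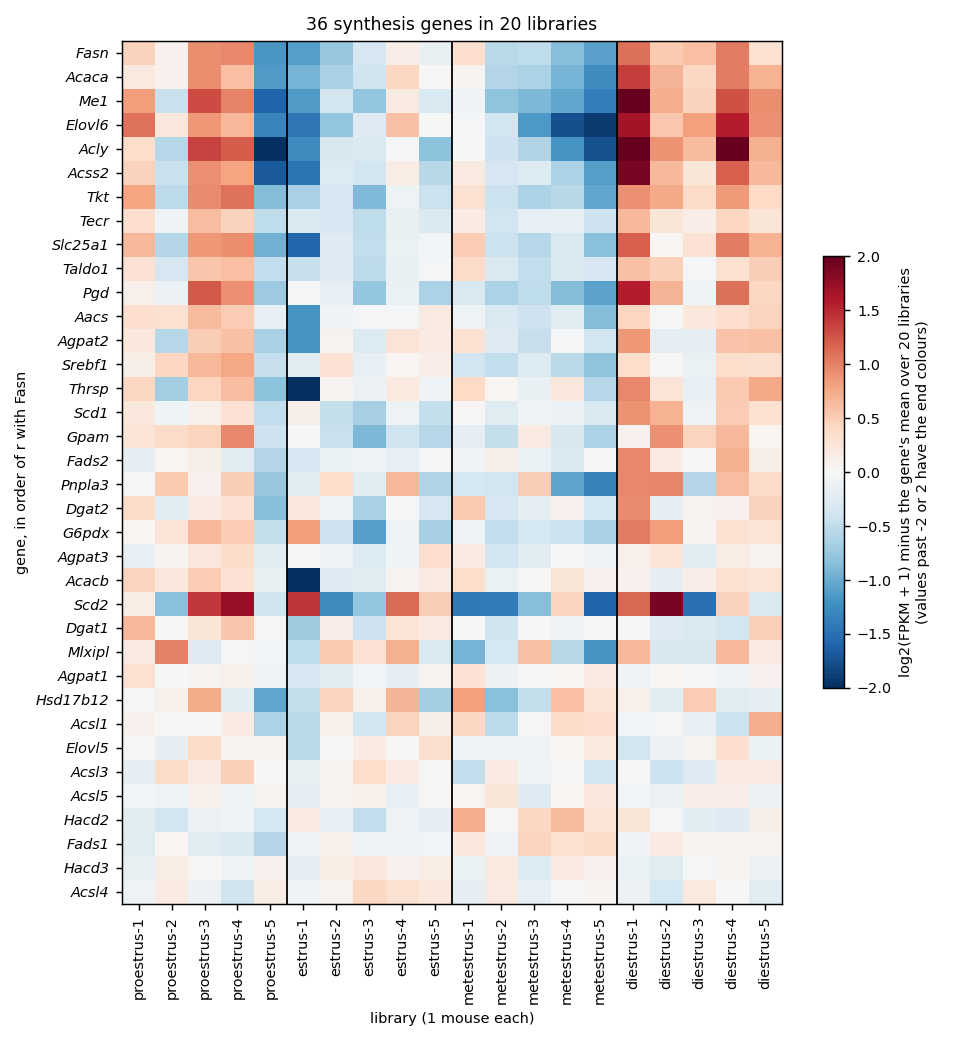
Heat map of the 36 synthesis genes (rows, in order of their correlation with Fasn) in the 20 libraries (columns, 1 mouse each), coloured by log2(FPKM + 1) minus the mean of the gene. The upper rows share their high values in diestrus-1, diestrus-4, proestrus-3 and proestrus-4 and their low values in proestrus-5, estrus-1 and metestrus-5, and the lowest rows, such as Hacd3 and Acsl4, vary little.

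The regions around the start sites of 4 genes are shown as examples of different patterns between stages. Fasn, Pgd and Elovl6 had their highest mean at diestrus and their lowest at metestrus, and Hacd2 had its highest at metestrus. Each window runs 5′ to 3′ on the strand of the gene from 250 bases before to 50 after a start, taken from RefSeq on GRCm38.p6, and capitals mark CCAAT or its reverse complement ATTGG, the letters of the box bound by the factor NF-Y. The windows are chr11:120824498-120824797 (minus strand) for Fasn, chr4:149166656-149166955 (minus strand) for Pgd, chr3:129532136-129532435 (plus strand) for Elovl6 and chr16:35022171-35022470 (plus strand) for Hacd2.
Fasn: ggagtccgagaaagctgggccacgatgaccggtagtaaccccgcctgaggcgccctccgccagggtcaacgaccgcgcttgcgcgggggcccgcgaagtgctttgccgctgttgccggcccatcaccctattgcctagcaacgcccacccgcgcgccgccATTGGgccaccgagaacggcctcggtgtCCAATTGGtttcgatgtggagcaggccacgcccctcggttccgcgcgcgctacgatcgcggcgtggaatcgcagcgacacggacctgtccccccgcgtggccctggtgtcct
Pgd: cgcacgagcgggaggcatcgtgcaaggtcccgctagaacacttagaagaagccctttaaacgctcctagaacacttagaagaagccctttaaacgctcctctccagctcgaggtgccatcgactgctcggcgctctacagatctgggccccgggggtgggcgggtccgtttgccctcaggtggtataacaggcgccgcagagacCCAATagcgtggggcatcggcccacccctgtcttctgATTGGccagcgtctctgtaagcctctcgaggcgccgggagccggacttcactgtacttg
Elovl6: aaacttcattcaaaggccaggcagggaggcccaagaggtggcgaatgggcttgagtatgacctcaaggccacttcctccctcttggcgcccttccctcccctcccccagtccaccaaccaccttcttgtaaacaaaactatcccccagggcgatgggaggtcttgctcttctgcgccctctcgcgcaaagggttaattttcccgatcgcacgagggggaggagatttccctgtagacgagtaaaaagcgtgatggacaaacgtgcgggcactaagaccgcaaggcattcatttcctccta
Hacd2: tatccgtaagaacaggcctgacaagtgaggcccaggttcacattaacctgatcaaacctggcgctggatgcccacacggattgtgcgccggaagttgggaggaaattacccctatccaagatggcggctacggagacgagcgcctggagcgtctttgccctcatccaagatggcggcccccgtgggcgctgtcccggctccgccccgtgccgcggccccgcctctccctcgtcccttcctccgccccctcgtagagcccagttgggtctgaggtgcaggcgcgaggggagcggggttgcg
In Fasn, CCAAT was read on the reverse strand from -90 to -86 and from -59 to -55 and on the forward strand from -62 to -58, where 1 is the first transcribed base, and the last pair overlap. The Pgd window shown held 2 matches, and those of Elovl6 and Hacd2 held none. A further window of Pgd, chr4:149166033-149166332 (minus strand), is not shown and held none.

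Windows were at hand for 31 of the 36 members, 39 windows in all, and Dgat1, Dgat2, Fads1, Scd1 and Scd2 had none in the table used. On either strand, CCAAT was found in 22 of the 39 windows (21 genes), against 37.4% of all 32851 windows of the same length. The GC box GGGCGG, the letters read by Sp1, was in 24 windows (22 genes), against 35.7% of all. The E-box CACGTG was in 4, those of Elovl5, Hacd3, Mlxipl and Slc25a1, against 7.15%, and the sterol regulatory element TCACNCCAC, a site type of the Srebf1 product, was in 2, those of Acsl1 and Mlxipl, against 1.24%. These matches describe the letters of the windows only.

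The clearest difference between stages lay between metestrus and diestrus, where 4 of the 36 members rose and none fell (limma on log2(FPKM + 1), adjusted p under 0.05). The 4 were Elovl6, Acaca, Pgd and Me1, which make long-chain fatty acids, malonyl-CoA and, for Pgd and Me1, NADPH. Of all 13987 genes, 1.24% were called in this comparison, and 0.4% were called higher. Of the members, 27 had a higher mean log2 value at diestrus and 9 a lower one, with a median difference of 0.55, while the median over all genes tested was -0.0018. At an unadjusted p under 0.05, 18 members stood higher and 1, Hacd2, lower, against 12.1% of all genes in either direction. For 10 members every diestrus mouse was above every metestrus mouse, a separation found in 1.48% of all genes.

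Elovl6 (chromosome 3, 129532355 to 129638495 of GRCm38), the elongase that extends palmitate to stearate, had the largest change among the called members. Its level was 77.5, 61.3, 35.3, 22.9 and 20.4 FPKM in the metestrus mice and 254, 116, 142, 239 and 150.2 FPKM in the diestrus mice. It was 170.0, 93.2, 146, 127 and 31.3 FPKM at proestrus and 29.0, 46.3, 65.9, 119.8 and 79.5 FPKM at estrus. Metestrus and diestrus did not overlap, whereas the proestrus and estrus mice spread across both. From metestrus to diestrus Elovl6 rose by 2.15 (SE 0.46) on the log2(FPKM + 1) scale, 4.43-fold, with an adjusted p of 0.0268 by limma. The call was lost when diestrus-4, diestrus-1, metestrus-5 or metestrus-4 was left out, with adjusted p from 0.0745 to 0.101.

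Acaca (chromosome 11, 84129672 to 84401651) encodes acetyl-CoA carboxylase 1, which makes the malonyl-CoA for chain building. Its level was 109, 68.9, 67.1, 54.6 and 43.7 FPKM at metestrus and 274, 168, 139.9, 212 and 169 FPKM at diestrus. At proestrus it was 120.0, 111, 201, 159 and 47.0 FPKM, and at estrus 54.2, 66.6, 79.1, 139 and 106 FPKM. The lowest diestrus mouse was above the highest metestrus mouse. Acaca rose by 1.50 (SE 0.34), 2.83-fold, with an adjusted p of 0.0339 by limma. The call was lost without metestrus-3, metestrus-4, metestrus-5, diestrus-1, diestrus-2, diestrus-4 or diestrus-5, with adjusted p from 0.0548 to 0.112. Acacb, the isoform at the mitochondrion that limits fatty acid oxidation, had a metestrus mean of 34.9 ± 4.77 FPKM and a diestrus mean of 35.0 ± 4.73 FPKM (SD, n = 5).

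Fasn (chromosome 11, 120805846 to 120824547), whose start is printed above, was at 719.5, 395, 401, 316 and 269 FPKM at metestrus and at 1230.4, 824, 872, 1182 and 705 FPKM at diestrus. The proestrus mice were at 791, 605, 1095, 1110.2 and 255 FPKM and the estrus mice at 267, 338, 454, 630.1 and 515 FPKM. Metestrus-1 lay above diestrus-5, so the groups overlapped by this pair. The difference from metestrus to diestrus was 1.25 (SE 0.35) with an adjusted p of 0.0914 by limma, which missed the threshold.

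NADPH supply was the group with the most members past the test. All 5 of its genes had higher means at diestrus than at metestrus, 5 of 5 at an unadjusted p under 0.05, and 2 were called. Me1 (chromosome 9, 86581371 to 86695953) makes NADPH from malate. Its level was 359, 216, 202, 183 and 144 FPKM at metestrus and 1636, 620.5, 517, 908 and 716 FPKM at diestrus. Proestrus mice had 671, 276, 935, 752 and 123 FPKM and estrus mice 170.5, 292, 221, 426 and 305 FPKM. Me1 rose by 1.93 (SE 0.46), 3.82-fold, with an adjusted p of 0.0474 by limma and no overlap between the groups. The call was lost without any of 12 libraries, namely estrus-2, estrus-3, estrus-4, estrus-5, metestrus-2, metestrus-3, metestrus-4, metestrus-5, diestrus-1, diestrus-2, diestrus-4 and diestrus-5, with adjusted p from 0.0519 to 0.150.

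Pgd (chromosome 4, 149149991 to 149166771) encodes 6-phosphogluconate dehydrogenase of the pentose phosphate pathway. Its level was 37.0, 29.3, 31.8, 24.6 and 21.3 FPKM at metestrus and 137, 74.0, 43.3, 99.0 and 61.2 FPKM at diestrus. It was 49.3, 42.2, 109, 87.3 and 27.4 FPKM at proestrus and 45.6, 40.6, 26.5, 41.7 and 29.0 FPKM at estrus. Diestrus-3 was the nearest to metestrus and still above all 5 of its mice. Pgd rose by 1.41 (SE 0.33), 2.66-fold, with an adjusted p of 0.0439 by limma. Its call was the least stable, being lost without any of 13 libraries (proestrus-1, estrus-2, estrus-4, estrus-5, metestrus-1, metestrus-2, metestrus-3, metestrus-4, metestrus-5, diestrus-1, diestrus-2, diestrus-4 and diestrus-5), with adjusted p from 0.0501 to 0.140. In the same pathway, Tkt, transketolase, differed by 1.13 (adjusted p = 0.101), G6pdx, glucose-6-phosphate dehydrogenase, by 0.91 (adjusted p = 0.140), and Taldo1, transaldolase, by 0.57 (adjusted p = 0.220), all in the limma fit, and the diestrus mice were all above the metestrus mice for Tkt and G6pdx.

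All 4 genes of citrate and acetyl-CoA supply also had higher means at diestrus than at metestrus, 4 of 4 at an unadjusted p under 0.05, but none was called after adjustment. Acly (chromosome 11, 100476353 to 100528000), which cleaves citrate in the cytosol, was at 273, 202, 179, 119 and 80.3 FPKM at metestrus and at 1349, 507, 421, 1082 and 442 FPKM at diestrus. In proestrus mice Acly was at 345, 182, 689, 625 and 55.3 FPKM and in estrus mice at 114, 215, 222, 262 and 153 FPKM. No diestrus mouse fell into the metestrus range, and the lowest and highest mice of the series, proestrus-5 and diestrus-1, differed 24.4 times. The difference of 2.09 (SE 0.55) in Acly had an adjusted p of 0.0702 by limma. Acss2, which makes acetyl-CoA from acetate, differed by 1.36 (adjusted p = 0.141), Aacs, which activates acetoacetate, by 0.67 (adjusted p = 0.141), and Slc25a1, the mitochondrial citrate carrier, by 0.97 (adjusted p = 0.269) in the same limma fit.

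**Figure D2:**
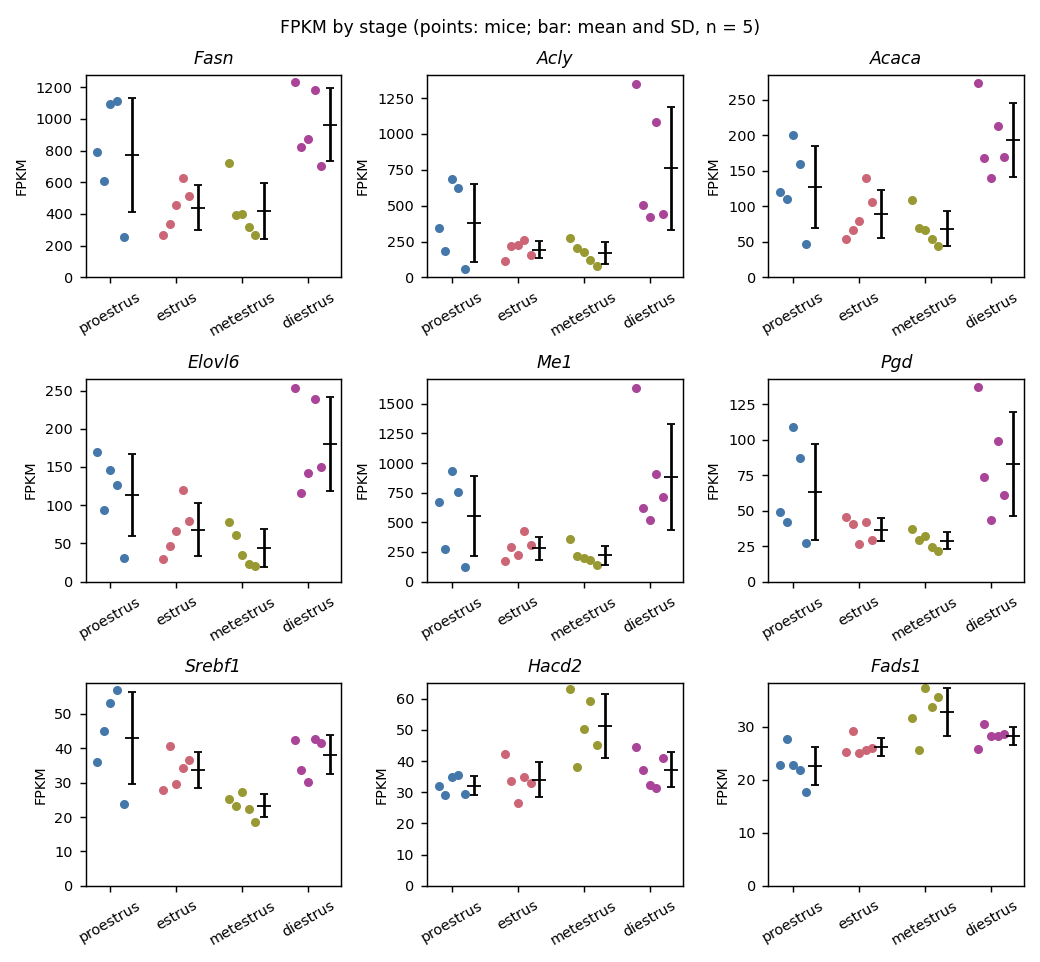
FPKM (vertical axes) of 9 synthesis genes in each mouse (points, in mouse order within a stage) with the mean and SD of each stage (bars, n = 5). In Acly, Acaca, Elovl6, Me1 and Pgd the 5 diestrus mice are all above the 5 metestrus mice, in Fasn metestrus-1 at 719.5 reaches above diestrus-5 at 705, and in Hacd2 and Fads1 the highest mean is at metestrus.

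The 3 regulators did not pass the test in this comparison. Srebf1 (chromosome 11, 60199089 to 60222581), which encodes the sterol regulatory element binding protein 1, was at 25.1, 23.2, 27.4, 22.4 and 18.6 FPKM at metestrus and at 42.5, 33.8, 30.3, 42.6 and 41.6 FPKM at diestrus. It was at 35.9, 45.1, 53.1, 57.1 and 23.7 FPKM at proestrus and at 27.9, 40.8, 29.5, 34.3 and 36.6 FPKM at estrus. Every metestrus mouse was below every estrus and every diestrus mouse, and proestrus-5 was the only mouse of another stage inside the metestrus range. From metestrus to diestrus the difference was 0.68 (SE 0.19) with an adjusted p of 0.0828 by limma, and from proestrus to metestrus it was -0.80 (SE 0.19) with an adjusted p of 0.0507.

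Mlxipl, which encodes the carbohydrate response element binding protein, was at 4.58, 7.34, 15.0, 6.19 and 3.65 FPKM at metestrus and at 15.6, 7.51, 7.50, 15.5 and 10.9 FPKM at diestrus. At proestrus it was at 10.9, 20.4, 7.82, 9.72 and 9.16 FPKM, and at estrus at 6.40, 14.3, 12.0, 16.3 and 7.53 FPKM. All 4 stages overlapped, and the difference from metestrus to diestrus was 0.65 (SE 0.33, adjusted p = 0.454 by limma). Thrsp was at 828, 646, 562, 721 and 419 FPKM at metestrus and at 1224, 745, 559, 902 and 1053 FPKM at diestrus. At proestrus it was at 832, 385, 844, 958 and 352 FPKM, and at estrus at 132, 653, 579, 713 and 588 FPKM, where estrus-1 stood far below the other 4 mice. The Thrsp difference from metestrus to diestrus was 0.48 (SE 0.40, adjusted p = 0.775 by limma).

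Among the desaturases, Scd1 (chromosome 19, 44394455 to 44407879) was at 6914, 5748, 6411, 6287 and 5500.1 FPKM at metestrus and at 12634, 11035, 6338, 9619 and 8432 FPKM at diestrus. The proestrus mice had 7873, 6373, 7266, 8288 and 4823 FPKM and the estrus mice 7396, 4902, 4286, 6307 and 4871 FPKM. Only diestrus-3 lay within the metestrus range, and the difference was 0.60 (SE 0.20, adjusted p = 0.165 by limma). Scd2, a close homolog that is the main form in brain, was far lower and more scattered. It was at 7.23, 7.30, 11.1, 28.8 and 6.19 FPKM at metestrus and at 47.4, 80.8, 6.78, 28.9 and 16.6 FPKM at diestrus. At proestrus it was at 23.3, 11.2, 57.1, 72.5 and 15.5 FPKM and at estrus at 57.8, 8.27, 11.8, 47.1 and 29.6 FPKM and all 4 stages overlapped. The Scd genes are similar in sequence, and how reads that fit several of them were shared was not tested.

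Triglyceride assembly differed less. Of its 7 genes, 6 had a higher mean at diestrus than at metestrus, 2 of them at an unadjusted p under 0.05, and none was called. Dgat2 (chromosome 7, 99153658 to 99182719), which adds the last fatty acid, was at 532, 292, 326, 392 and 290.0 FPKM at metestrus and at 708, 325, 386, 391 and 511 FPKM at diestrus. At proestrus it was at 482, 315, 413, 453 and 205 FPKM, and at estrus at 430.4, 344, 235, 363 and 292 FPKM. The stages overlapped broadly, with a difference of 0.32 (SE 0.25, adjusted p = 0.745 by limma). The other acyltransferase of this step, Dgat1, had means of 47.9 ± 5.54 FPKM at metestrus and 49.1 ± 13.1 FPKM at diestrus (SD, n = 5). Gpam, the mitochondrial enzyme of the first acylation, differed by 0.72 (adjusted p = 0.141), and Pnpla3, a droplet protein of the patatin family, by 0.996 (adjusted p = 0.204), both in the limma fit. The activation genes Acsl1, Acsl3, Acsl4 and Acsl5 had differences from -0.10 to 0.08, and none reached an unadjusted p under 0.05.

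The number of members called from metestrus to diestrus moved with the libraries and the weighting. It was 8 without proestrus-5, 0 when diestrus-4, diestrus-1, metestrus-5 or metestrus-4 was left out, 1 (Elovl6) without metestrus-3, diestrus-2 or diestrus-5, 2 without estrus-2, estrus-4, estrus-5 or metestrus-2, 0 without proestrus-2 and metestrus-3 together, and 19 with array weights, which give less weight to libraries far from their group and called 1035 of the 13987 genes in place of 173. It was 0 without a filter on low values (70 of 35841 genes called) and 1 (Elovl6) with median-ratio size factors (113 of 13893). The calls over all genes moved too, to 207 without proestrus-5. In the fits without diestrus-4, diestrus-1, metestrus-5 and metestrus-4 they were 70, 53, 53 and 43. Without metestrus-3, diestrus-2 and diestrus-5 they were 157, 98 and 112. For estrus-2, estrus-4, estrus-5 and metestrus-2 they were 132, 124, 132 and 180, and without proestrus-2 and metestrus-3 together 196. Among the adipocyte markers, 10 of 10 measured, 3 had a higher and 7 a lower mean at diestrus, Cidec, a lipid droplet protein, fell by 1.02 on the log2 scale (adjusted p = 0.0282 by limma), and their sums were 10137 to 17765 FPKM at metestrus and 8189 to 16395 FPKM at diestrus. The 15 B and T cell markers summed to 2.64 to 363 FPKM at metestrus and 5.29 to 334 FPKM at diestrus, all 15 with a higher mean and none called, with Cr2 and Cd8b1 the only ones listed at 0 in a library. With their score as a covariate 5 members were called, the same 4 and Srebf1, while the calls over all genes went from 173 to 381. Of 5 mammary basal markers, Oxtr, the oxytocin receptor gene, rose by 1.85 (adjusted p = 0.00694 by limma), while the other 4 had lower means, 1 of them, Krt14, at an unadjusted p under 0.05, and the median of the 5 was -0.34. All 8 macrophage markers had a lower mean at diestrus, none at an unadjusted p under 0.05, with sums of 495 to 1282 FPKM at metestrus and 394 to 1361 FPKM at diestrus. The part of these marker lists in the result was not tested.

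**Figure D3:**
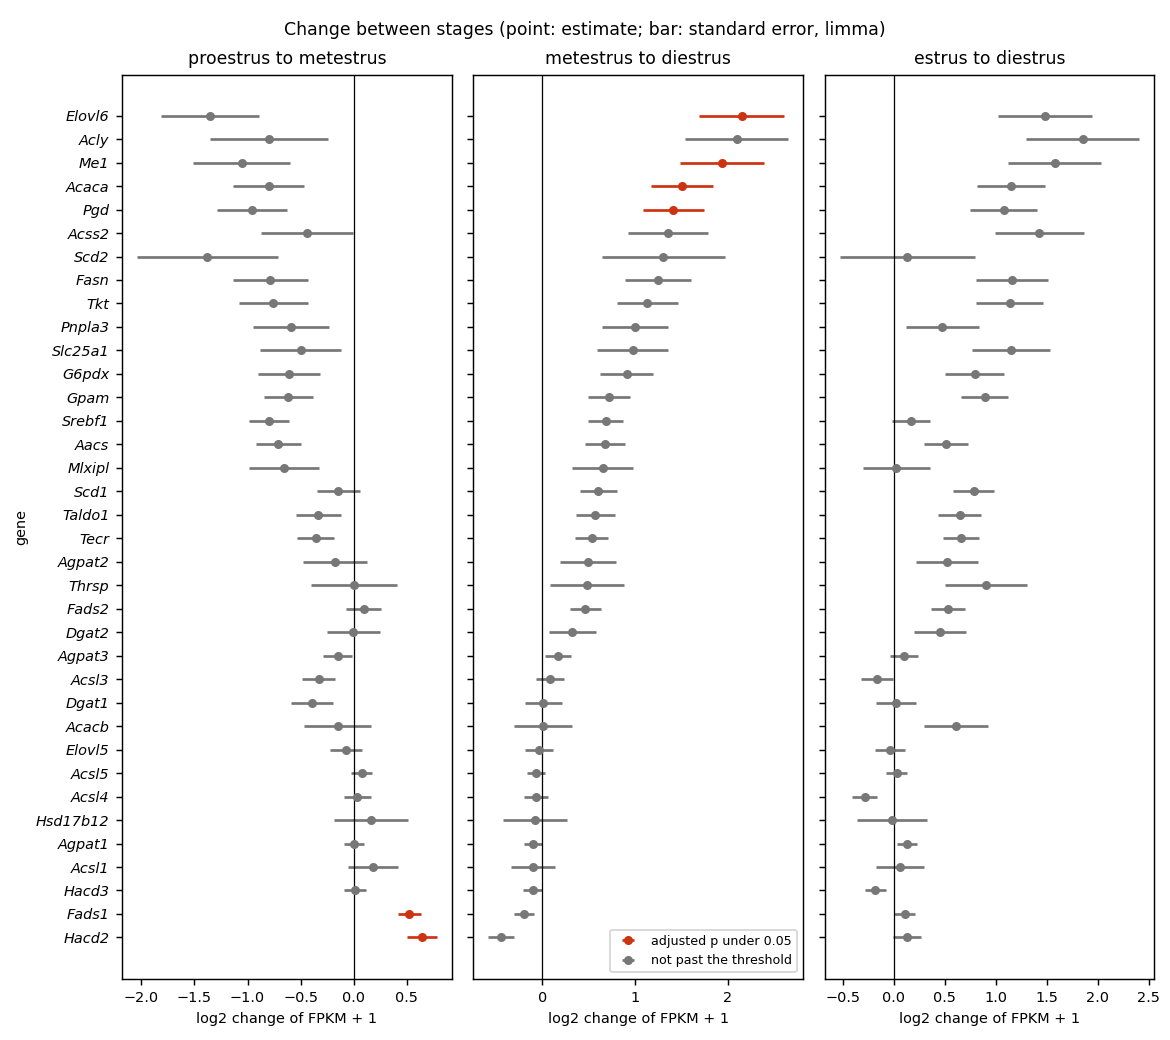
Difference between stages on the log2(FPKM + 1) scale (horizontal axes, later minus earlier stage; points are limma estimates, bars standard errors) for the 36 synthesis genes in 3 comparisons. From metestrus to diestrus the estimates run from 2.15 in Elovl6 to -0.44 in Hacd2, with 4 called, and from proestrus to metestrus Hacd2 and Fads1 are the called genes, both higher at metestrus.

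From proestrus to metestrus, 2 members rose, Fads1 and Hacd2, and none fell past the threshold (limma), against 0.879% of all genes called and 0.593% called higher. Most of the list leaned the other way: 27 members had a lower mean at metestrus and 9 a higher one, with a median of -0.35 against -0.0104 over all genes, and 11 stood lower at an unadjusted p under 0.05 with 10.5% of all genes in either direction. Without proestrus-5, 19 stood lower, and without proestrus-3, proestrus-4, proestrus-1, metestrus-4 or metestrus-5 between 4 and 7 did. Over all genes the unadjusted count in either direction was 1475 in the full fit and 1550 without proestrus-5. It was between 1152 and 1266 in the other fits named. This comparison and the one above share the metestrus mice. All 8 macrophage markers had a higher mean at metestrus, 6 at an unadjusted p under 0.05 (median 0.85), with sums of 334 to 789 FPKM at proestrus and 495 to 1282 FPKM at metestrus. All 15 B and T cell markers had a lower mean (median -0.91), with sums of 3.06 to 342 FPKM at proestrus and 2.64 to 363 FPKM at metestrus. None of either list was called, while Oxtr fell by 2.35 on the log2 scale (adjusted p = 0.000521 by limma) and the other 4 mammary basal markers had higher means. With the lymphocyte score as a covariate 3 members were called, Fads1 and Hacd2 higher and Srebf1 lower, with 235 of all genes called in place of 123. The part of the other markers in the result was not tested.

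Fads1 (chromosome 19, 10182888 to 10196877), the delta-5 desaturase of polyunsaturated fatty acids, was at 22.8, 27.8, 22.8, 21.9 and 17.7 FPKM at proestrus and at 31.6, 25.7, 37.3, 33.8 and 35.7 FPKM at metestrus. It was at 25.3, 29.1, 25.1, 25.6 and 26.0 FPKM at estrus and at 25.7, 30.6, 28.2, 28.3 and 28.6 FPKM at diestrus. Metestrus-2 lay below proestrus-2, and the other 4 metestrus mice were above every proestrus mouse. Fads1 rose by 0.52 (SE 0.11), 1.44-fold, with an adjusted p of 0.0231 by limma. The call was lost without proestrus-3, proestrus-4, proestrus-5, metestrus-3, metestrus-4 or metestrus-5 (adjusted p from 0.0594 to 0.0767).

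Hacd2 (chromosome 16, 35022428 to 35109177), a 3-hydroxyacyl-CoA dehydratase of the elongation cycle, was at 32.1, 29.0, 34.8, 35.4 and 29.4 FPKM at proestrus and at 63.2, 38.2, 50.3, 59.2 and 45.3 FPKM at metestrus. It was at 42.1, 33.5, 26.6, 35.1 and 32.9 FPKM at estrus and at 44.7, 37.0, 32.3, 31.2 and 40.9 FPKM at diestrus. Every metestrus mouse was above every proestrus mouse, which held for 1.43% of all genes in this direction. Hacd2 rose by 0.64 (SE 0.14), 1.56-fold, with an adjusted p of 0.0346 by limma. The call was lost without proestrus-1, proestrus-3, proestrus-4, proestrus-5, metestrus-1, metestrus-3, metestrus-4 or metestrus-5 (adjusted p from 0.0553 to 0.120), and both calls of this comparison were lost in the 10 libraries of the 2 stages alone and with median-ratio size factors. The count of members called was 4 without estrus-1, where Srebf1 and Aacs fell beside the 2 that rose, and 1 without proestrus-1 or metestrus-1, where Fads1 rose. Without proestrus-5 it was also 1, but the call was a fall of Srebf1. It was 3 without diestrus-3, where Srebf1 fell too, and 0 without proestrus-3, proestrus-4, metestrus-3, metestrus-4 or metestrus-5. In these last fits 53, 58, 91, 53 and 64 of all genes were called in the order named, in place of 123. The calls over all genes were 164 without estrus-1, 138 without proestrus-1 and 83 without metestrus-1. They were 74 without proestrus-5 and 128 without diestrus-3.

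From estrus to diestrus, none of the 36 members was called by limma, and the same held for every other gene, so the share of all genes called was 0.0%. At an unadjusted p under 0.05, 17 members stood higher at diestrus and 1, Acsl4, lower, against 6.08% of all genes. The median difference of the list was 0.51, against -0.061 over all genes, and 31 members had a higher mean. For 9 members, Slc25a1, Acaca, Acly, Tkt, Gpam, Fasn, Acss2, Tecr and Me1, every diestrus mouse was above every estrus mouse, with 0.658% of all genes separated in this direction. The differences were 1.85 (SE 0.55) in Acly, 1.58 (SE 0.46) in Me1, 1.48 (SE 0.46) in Elovl6 and 1.16 (SE 0.35) in Fasn, with adjusted p of 0.534, 0.518, 0.548 and 0.534 by limma. The diestrus mice are the same as in the comparison with metestrus. All 15 B and T cell markers had a higher mean at diestrus (median 0.77), as did 5 of 6 brown fat markers. All 8 macrophage (median -0.15), 8 mammary luminal (median -0.20) and 5 endothelial markers (median -0.092) had a lower one, as did 7 of 10 adipocyte markers. None of these lists held a called gene, and the part of these markers in the result was not tested.

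The other 3 pairs of neighbouring stages gave no call among the members by limma. From proestrus to estrus, 29 members had a lower mean and 7 a higher one (median -0.30 against 0.048 over all genes), 0.143% of all genes were called, and 6 members, Tkt, Gpam, Aacs, Tecr, Agpat1 and Acacb, stood lower at an unadjusted p under 0.05, against 6.69% of all genes in either direction. Leaving out proestrus-5 raised that count to 20, with 19 lower and 1 higher, and leaving out proestrus-2 raised it to 11, with 9 lower and 2 higher, while it was 3 without proestrus-1 or proestrus-3. The same count over all 13987 genes moved as well, from 936 in the full fit. It was 1180 without proestrus-5, 2246 without proestrus-2, 575 without proestrus-1 and 636 without proestrus-3. All 8 macrophage markers had a higher mean at estrus, 4 at an unadjusted p under 0.05, with sums of 334 to 789 FPKM at proestrus and 509 to 975 FPKM at estrus. The 6 brown fat markers (124 to 259 and 30.8 to 178 FPKM) and the 15 B and T cell markers (3.06 to 342 and 2.49 to 511 FPKM) all had lower means. None of these lists held a called gene, Oxtr fell by 1.74 (adjusted p = 0.0187 by limma), and the part of these markers in the result was not tested. From estrus to metestrus, 0.222% of all genes were called, and Srebf1 was the 1 member whose mice did not overlap, lower at metestrus, as in 1.02% of all genes. At an unadjusted p under 0.05, Fads1, Agpat1 and Hacd2 stood higher and Srebf1 lower, against 8.13% of all genes. From diestrus to proestrus, 0.0143% of all genes were called, and Fads1, Acly, Fads2, Acss2 and Scd1 were lower at an unadjusted p under 0.05, against 3.96%. In the test over the 4 stages at once, 0 of the 36 members and 0.736% of all genes were called, and 19 members had an unadjusted p under 0.05, against 10.7% of all genes. Leaving out proestrus-5 raised the count of this test to 9, with 104 of all genes called in place of 103, and array weights raised it to 17, with 767 of all genes.

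Of 50 further genes of fatty acid and triglyceride metabolism, 45 passed the filter, and several of the enzymes moved differently from the members above. From metestrus to diestrus 2 rose and 3 fell, from proestrus to metestrus 2 rose and 1 fell, and from estrus to metestrus 1 rose (limma, adjusted p under 0.05). Scd3 is counted among the 2 that rose to diestrus, though it passed the filter only through its diestrus mice. Of all genes, 1.24%, 0.879% and 0.222% were called in these comparisons in either direction. Idh1, the cytosolic isocitrate dehydrogenase that also makes NADPH, was at 119.6, 159, 157, 154 and 154 FPKM at proestrus, 133, 151, 107, 133 and 126 FPKM at estrus, 96.0, 91.5, 91.0, 89.1 and 70.9 FPKM at metestrus and 143, 161, 133, 120.2 and 166 FPKM at diestrus. The metestrus mice were below all other mice. Idh1 fell by 0.75 on the log2 scale from proestrus to metestrus (adjusted p = 0.00267) and rose by 0.71 from metestrus to diestrus (adjusted p = 0.00694), and both limma calls held in each of the 20 fits that left out 1 library.

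Lpin1, a phosphatidate phosphatase that makes diacylglycerol, had the opposite course. It was at 22.9, 19.3, 21.8, 22.2 and 15.2 FPKM at proestrus, 22.1, 16.9, 17.1, 21.4 and 18.0 FPKM at estrus, 47.3, 24.9, 41.1, 56.5 and 51.4 FPKM at metestrus and 30.1, 16.0, 22.2, 22.0 and 21.5 FPKM at diestrus. Metestrus-2 was the only metestrus mouse within the range of another stage. Lpin1 rose by 1.05 from proestrus to metestrus (adjusted p = 0.00880) and by 1.13 from estrus to metestrus (adjusted p = 0.0140), and fell by 0.93 from metestrus to diestrus (adjusted p = 0.0202), all by limma. The first of these held in all 20 fits with 1 library left out, the second was lost if metestrus-5 or metestrus-4 was absent (adjusted p up to 0.0620), and the last if diestrus-4, diestrus-2, metestrus-5 or metestrus-4 was (adjusted p up to 0.0830).

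Lpin3, a related phosphatase at low level, was at 3.27, 3.96, 4.75, 4.26 and 3.18 FPKM at metestrus and 1.72, 2.40, 1.64, 1.49 and 2.33 FPKM at diestrus, and Gpat4, a glycerol-3-phosphate acyltransferase of the endoplasmic reticulum, was at 44.7, 24.0, 32.0, 40.9 and 41.9 FPKM and 18.1, 28.5, 21.4, 17.4 and 21.4 FPKM. Lpin3 fell by 0.75 (adjusted p = 0.0343) and Gpat4 by 0.74 (adjusted p = 0.0293) from metestrus to diestrus, and Lpin3 rose by 0.86 from proestrus to metestrus (adjusted p = 0.0165), by limma. The metestrus to diestrus calls were lost without 6 libraries each, for Lpin3 metestrus-2, metestrus-3, metestrus-4, metestrus-5, diestrus-1 and diestrus-4 (adjusted p to 0.112) and for Gpat4 metestrus-1, metestrus-4, metestrus-5, diestrus-1, diestrus-4 and diestrus-5 (adjusted p to 0.109), and the proestrus to metestrus call of Lpin3 without proestrus-3, proestrus-4 or metestrus-4 (adjusted p to 0.0625). Scd3, a desaturase next to Scd1 and Scd2 on chromosome 19, was at 0.0252, 0.0331, 0.0405, 0.890 and 0.0442 FPKM at metestrus and 2.25, 1.92, 1.02, 1.87 and 1.01 FPKM at diestrus. It rose by 1.13 (adjusted p = 0.0150 by limma), a call lost without metestrus-5 or diestrus-1 (adjusted p to 0.0546). Outside diestrus, only proestrus-1, proestrus-2, proestrus-3 and estrus-1 reached 1 FPKM (1.08, 1.22, 1.14 and 1.54). Scd3 thus passed the filter only through diestrus, the stage where it is high, so its call is given as a description.

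The members also moved together from mouse to mouse. Over the 20 libraries, 17 of the 35 other members were correlated with Fasn after adjustment over 13986 genes (Pearson's r of log2(FPKM + 1), 100000 permutations, two-sided), and all 17 positively. Of all genes, 1.61% were called with a positive r. The median r of the 35 members was 0.62, against -0.16 over all genes, and 30 members had a positive r. Of the members, 11 had an r of at least 0.8, as did 66 of the 13986 genes (0.472%), and members made up 5 of the first 10, 8 of the first 20 and 11 of the first 100 genes in order of r.

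Acaca followed Fasn most closely of all 13986 genes, with an r of 0.966 (Spearman's correlation 0.950, p = 1e-05 for both, the smallest the permutations can give, adjusted p = 0.00245 for r). Without proestrus-5 and estrus-1, the libraries farthest from the median of Fasn, its r was 0.959, with each stage centred on its mean 0.961, in the 12 libraries with high lymphocyte genes 0.975 and in the 8 with low lymphocyte genes 0.976. In order of r, the next members were Me1 (0.944), Elovl6 (0.940), Acly (0.935), Acss2 (0.928), Tkt (0.920), Tecr, the reductase that ends each elongation round (0.910), Slc25a1 (0.906), Taldo1 (0.858), Pgd (0.834) and Aacs (0.815). Without proestrus-5 and estrus-1, each of the members from Me1 to Aacs in this order had an r of at least 0.831. By Spearman's correlation, 16 of the 17 called members passed, the exception being Fads2 (0.552, adjusted p = 0.146), against 1.27% of all genes. Pcx, pyruvate carboxylase, which supplies oxaloacetate for citrate, Slc2a5, a fructose transporter, Pygl, glycogen phosphorylase, and Mapk8ip1, a scaffold of JNK signalling, were the genes outside the list among the 10 with the highest r once predicted gene models and clone names are left out (0.929, 0.963, 0.928 and 0.928), given as a description with no test.

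Below these stood Agpat2, an acyltransferase that makes phosphatidate (0.760), Srebf1 (0.732), Thrsp (0.700), Scd1 (0.693), Gpam (0.693) and Fads2 (0.641), all called with adjusted p from 0.00874 to 0.0410 by permutation. Without proestrus-5 and estrus-1, 15 members were called, against 1.59% of all genes, and the correlations of Thrsp, Agpat2 and Fads2 were 0.648, 0.679 and 0.532 and no longer passed (adjusted p = 0.0679, 0.0556 and 0.141, permutation). Dgat2 (0.604), G6pdx (0.603), Pnpla3 (0.615), Mlxipl (0.314) and Scd2 (0.411) were not called, and G6pdx without the same libraries was at 0.818 (adjusted p = 0.00777, permutation). The lowest r were -0.38 in Acsl4, which prefers arachidonate, -0.33 in Hacd3, -0.15 in Fads1 and -0.15 in Hacd2, none past the test.

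**Figure D4:**
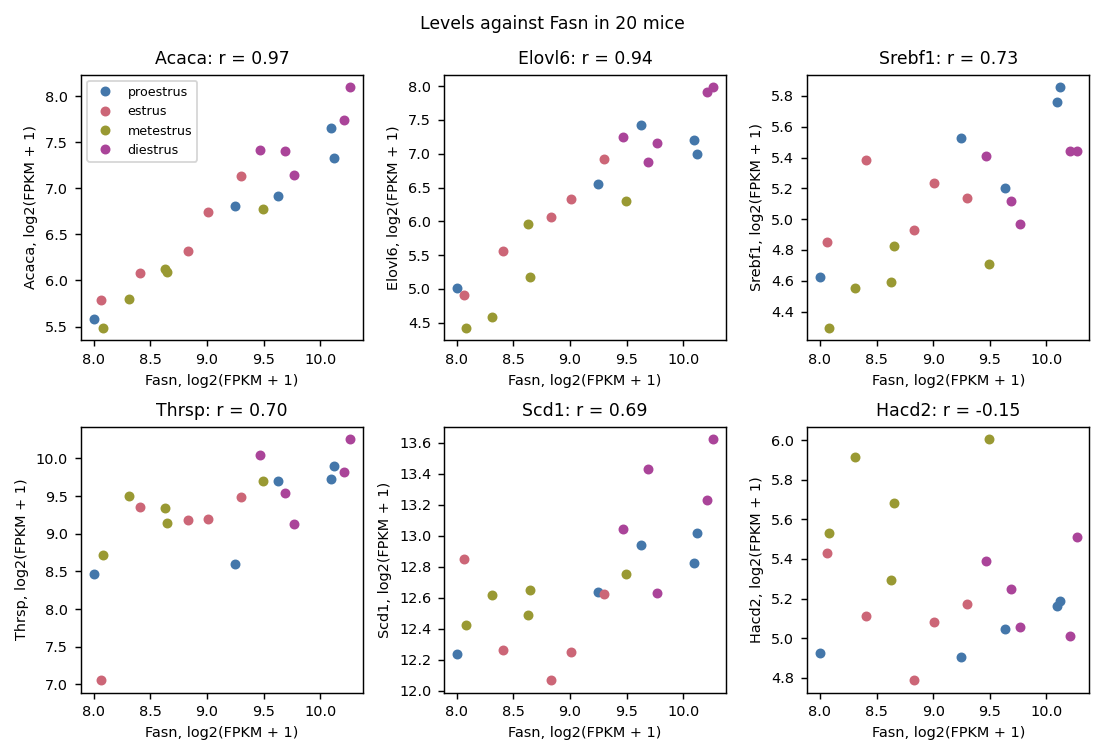
Level of 6 synthesis genes (vertical axes) against Fasn (horizontal axes) in the 20 mice, both as log2(FPKM + 1), coloured by stage. Acaca and Elovl6 follow Fasn closely within and between stages (r of 0.97 and 0.94), Srebf1 (0.73), Thrsp (0.70) and Scd1 (0.69) more loosely, and Hacd2 (-0.15) does not follow it.

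The correlation did not rest only on the differences between stages. With each stage centred on its mean and permuted within stages, the median r of the members was 0.47, against -0.17 over all genes, and 6 members were called, Acaca, Me1, Elovl6, Acly, Acss2 and Slc25a1 (adjusted p from 0.0233 to 0.0420, permutation), against 0.2% of all genes. In the 12 libraries with high lymphocyte genes the median r of the members was 0.81 and 13 were called (permutation), against 0.672% of all genes. In the 8 libraries with low lymphocyte genes the median was 0.56, and an exact test over 40320 orders called 0 members and 0.0% of all genes after adjustment, with 12 members and 747 of all genes at an unadjusted p under 0.05. All values of a mouse come from 1 library and share its scaling. With median-ratio size factors the median r over all genes moved to -0.00044, that of the members to 0.67, and 20 members were called, against 3.13% of all genes.

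**Figure D5:**
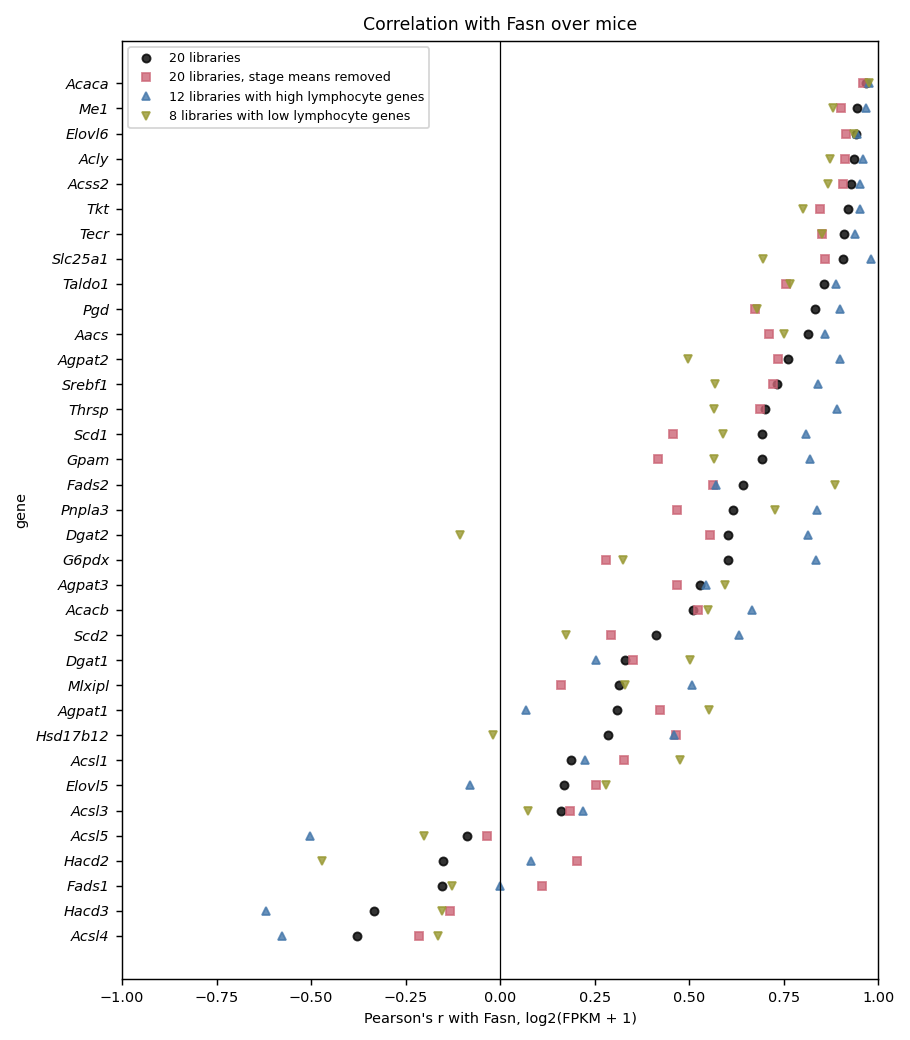
Pearson's r with Fasn (horizontal axis, log2(FPKM + 1)) of the 35 other synthesis genes over all 20 libraries, over 20 libraries with the stage means removed, and within the 12 libraries with high and the 8 with low lymphocyte genes. From Acaca (0.966) to Aacs (0.815) no setting falls under 0.67, whereas Dgat2 has an r of 0.604 over all libraries and -0.107 in the low lymphocyte libraries.

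By role, citrate and acetyl-CoA supply was bound most tightly to Fasn, with 4 of 4 genes called and a median r of 0.92, followed by NADPH supply with 4 of 5 called and a median of 0.86. Triglyceride assembly had 2 of 7 called and a median of 0.60, elongation 2 of 6 called and a median of 0.23, and activation 0 of 4 called and a median of 0.036. Of the 45 further genes of the pathway tested, 3 were called, Insig1, which retains the SREBP complex in the endoplasmic reticulum (0.727), Mogat1, a monoacylglycerol acyltransferase (0.715), and Slc2a4, the insulin-responsive glucose transporter (0.674), with adjusted p of 0.0223, 0.0348 and 0.0406 by permutation. The share of all genes called with a positive r was 1.61%. The adipocyte markers were not among the correlated genes: 0 of 10 were called, and their r ran from -0.61 in Cidec to 0.57 in Retn. Without proestrus-5 and estrus-1, Cidec was called (r = -0.69, adjusted p = 0.0419 by permutation), as was Oxtr of the mammary basal markers (r = 0.78, adjusted p = 0.0225). Of the further pathway genes, Insig1 and Slc2a4 were then no longer called (adjusted p = 0.0733 and 0.0806 by permutation). Mogat2 was then called with a positive r (0.697, adjusted p = 0.0294 by permutation). Agpat4 and Lpin3 were called with a negative r (-0.711 and -0.778, adjusted p = 0.0395 and 0.0159 by permutation). All 15 B and T cell markers had a positive r between 0.17 and 0.29, the 8 macrophage markers a negative one, and over the 20 libraries none of either list was called, nor any marker of muscle, mammary epithelium, brown fat or endothelium.

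Among all 630 pairs of members the median r was 0.32, with 483 positive and 67 of at least 0.8, and with each stage centred the median was 0.33 with 56 of at least 0.8. These are descriptions over the same 20 libraries. The tightest pair was Acly and Acss2 (0.97), which make acetyl-CoA from citrate and from acetate. The partner most like Scd1 was G6pdx (0.87) and that of Thrsp was Agpat2 (0.92), while Hacd2 was most like Fads1 (0.62) and Acsl4 most like Hacd3 (0.78). The most opposed pair was Scd1 and Acsl4 (-0.71).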

How the data were processed

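RNA of inguinal subcutaneous fat from 20 mice (5 per stage) was sequenced after polyA selection. Per the labels and methods, the authors trimmed reads with Skewer, checked them with FastQC 0.11.5, aligned them to GRCm38 with STAR 2.5.3a and deposited FPKM per gene. The methods name HTSeq for counting, whereas the submitters' processing notes list StringTie 1.3.1c and, beside GRCm38, hg38. The annotation release is not given in the sources used here. Coordinates were taken from GENCODE M21. The study lists the reads of each library, and these totals were not used here. Relative depth was estimated from the steps of low FPKM values. Whole reads per gene could not be recovered (3.47 to 6.67% of values under 0.05 FPKM in the tallest bin), so no count test was run. At most 0.0302% of values were equal between libraries, so none was a repeat of another.

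Genes reaching 1 FPKM in 5 libraries or more were tested with limma 3.58.1 (R 4.3.3) on log2(FPKM + 1), with a mean per stage, a variance trend and Benjamini-Hochberg adjustment over all 13987 genes at 0.05. This scale understates changes of low genes. Each library is 1 mouse, so the limma tests set differences between stages against the spread between mice. Correlations with Fasn were computed in Python 3.11.15 (scipy 1.17.1) with 100000 permutations and adjusted over all 13986 other genes tested, in place of the members alone as first written down. Replicate numbers did not pair the mice: over 30 same-numbered pairs the mean correlation of deviations was -0.078, against 0.020 for other pairs, and 10 pairs were over 0.1. Scripts were tested on simulated data. The members, the gene lists and the marker lists were chosen with earlier results of these data known. Values in every library are given for 11 members picked by name and for any member past the threshold in a pair of stages. Also named are the 10 genes of highest r with Fasn, with predicted gene models and clone names left out, and the further pathway genes past the threshold. Mice of low and high lymphocyte markers were split at the widest gap of the mean log2 score (1.81 to 2.70). Alternatives were another pseudocount (0.1 or 5), no filter or a mean of at least 5 FPKM, array weights, an equal total per library, no variance trend, median-ratio size factors, the replicate number as a block, a covariate for lymphocyte genes, and the omission of libraries.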

Additional observations from a re-analysis of the deposited data

Results flagged for a closer look

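A library far from the other 4 of its stage, by Dixon's test at 95%, was found in 9 of the 144 groups of 5 mice (36 genes in 4 stages), where chance gives about 1 in 20. In proestrus, Mlxipl was 20.4 FPKM in proestrus-2, above the others at 7.82 to 10.9, and Acsl1 was 72.2 FPKM in proestrus-5, below the others at 112 to 126. In estrus-1, Thrsp was 132 FPKM against 579 to 713 in the others and Aacs was 25.5 FPKM against 56.1 to 66.7, while Fads1 was 29.1 FPKM in estrus-2 against 25.1 to 26.0. In metestrus, Scd2 was 28.8 FPKM in metestrus-4 against 6.19 to 11.1, Taldo1 was 196 FPKM in metestrus-1 against 106 to 122, and Dgat1 was 38.3 FPKM in metestrus-2 against 48.2 to 51.5. In diestrus-5, Acsl1 was 185.5 FPKM against 82.7 to 110.6. Estrus-1 was the library with more than 1 of these values, and it also held the lowest summed B and T cell markers of the series.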

How the results depend on the processing

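No called gene changed sign under any alternative. From estrus to metestrus, where no member was called, the list had no stable direction: 19 members had a higher mean and 17 a lower one as reported (median 0.0099), 15 and 21 with array weights (median -0.080), 16 and 20 with an equal total per library (median -0.026), and the median ran from -0.11 (without estrus-1) to 0.062 with 1 library left out. From metestrus to diestrus, 4 members were called as reported, 19 with array weights (18 higher, 1 lower, with 1035 of all genes called in place of 173), 1 with median-ratio size factors, 0 without a filter on low values and 0 without proestrus-2 and metestrus-3 together, and 0 to 8 when 1 library was left out. Over all genes, 113 were called with median-ratio size factors, 70 without a filter, and 43 to 272 with 1 library left out. From proestrus to metestrus the count was 2 as reported, 5 with array weights (2 higher, 3 lower), 0 with median-ratio size factors, 0 in the 10 libraries of the pair alone, 1 without a filter, 1 without proestrus-2 and metestrus-3 together, and 0 to 4 with 1 library left out, the calls being higher except for Srebf1 and Aacs without estrus-1, and for Srebf1 without proestrus-5 or diestrus-3. The calls over all genes were 123, 494, 121, 66, 96 and 292 in the same order, and 53 to 327 with 1 library left out. From estrus to metestrus the count of members was 0 as reported, 1 with array weights, 1 with the lymphocyte covariate, and 0 to 1 with 1 library left out, the 1 being without metestrus-2. The calls over all genes were 31, 165 and 90 in the first 3 of these, and 56 without metestrus-2. Over the 4 stages the count of members was 0 as reported, 17 with array weights, 3 with the lymphocyte covariate, 1 without proestrus-2 and metestrus-3 together, and 0 to 9 with 1 library left out. The calls over all genes were 103, 767, 217 and 187 in the same order, and 36 to 183 with 1 library left out. With the replicate number as a block, which does not pair these mice, 2 members were called from metestrus to diestrus, 1 from proestrus to metestrus and 0 in the other comparisons. Members correlated with Fasn numbered 17 as reported, 6 with stages centred, 0 in the 8 low lymphocyte libraries, and 14 to 18 with 1 library left out. The 8 libraries allow only 40320 orders, so a call there after adjustment over all genes was hardly within reach. Why these counts moved was not tested. Of all genes, 56 rose and 117 fell from metestrus to diestrus, and with an equal total per library 68 rose and 81 fell. FPKM without reads gives no counting interval, and 5 mice per stage limit the precision.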
